A study of Homo sapiens with 24 samples.

Results

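A set of 10 genes was named for the machinery of RNA polymerase I: the subunits POLR1A, POLR1B, POLR1C, POLR1D, POLR1E and POLR1F, the promoter selectivity factors TAF1A and TAF1B, the rDNA-binding factor UBTF and the initiation factor RRN3. Of these 10 genes, 9 have a transcript cluster, the group of probes summarised as 1 gene, that carries their symbol alone, among 14232 genes measured that way. Each of the 9 has 1 such cluster, so no choice between clusters was needed. RRN3 is present only in 2 clusters whose annotation also lists its pseudogenes, and it has no value of its own here. The genes were measured in MHH-CALL4 and MUTZ-5, 2 established lines of human B-ALL, a leukemia of precursor B cells. Each line received 500 nM JQ1, which displaces BET bromodomain proteins from acetylated chromatin, or its solvent DMSO, for 8 hours. Total RNA from 3 samples per group (MHH-CALL4 with DMSO, MHH-CALL4 with JQ1, MUTZ-5 with DMSO, MUTZ-5 with JQ1) was hybridised to 1 exon array each, 12 arrays in all. All values are RMA log2 values as deposited. RMA brings the arrays to a common scale, so each difference is relative to the other genes. A change of all RNA per cell would not be seen. Nothing in the labels tells whether samples of 1 group were separate cultures, so p-values measure the spread between samples, which may be technical. In bulk RNA, fewer cells of a type and less RNA per cell cannot be told apart.

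RNA polymerase I transcribes a single kind of gene, the ribosomal DNA repeats of the nucleolus, and its output sets how many ribosomes a cell can build. UBTF coats the active repeats, the TBP-containing complex SL1 (with TAF1A and TAF1B) marks the promoter, and RRN3 brings the polymerase to it. POLR1A and POLR1B form the catalytic centre, POLR1C and POLR1D are the assembly platform that RNA polymerase III uses as well, and POLR1E and POLR1F belong to peripheral modules of polymerase I. MYC is known to promote this pathway, both at the rDNA and through genes of the machinery. The genes of the machinery are themselves transcribed by RNA polymerase II, which is where BET proteins act.

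The median of the 14232 genes lay between 8.46 and 8.57 log2 units on the 12 arrays, and the number of arrays limits the precision. Signal over background is unknown, since neither detection calls nor background values came with the arrays. The labelled cell type was set beside markers: 8 measured precursor B cell genes had means from 7.58 (RAG1) to 13.21 (DNTT), 4 T cell genes from 5.39 to 6.36, 3 myeloid genes from 5.95 to 7.74 (CD14) and 2 erythroid genes from 6.89 to 7.12. Levels of different probes are not comparable, and RAG1 read below CD14, so these ranges are a description and no test of the cell type.

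The promoters of members are shown because 6 of the 9 genes fell under JQ1 in each line, and 4 short motifs were searched in them. RefSeq windows of GRCh38.p14 (250 bases before to 50 after a start site) matched 9 of the 10 named genes, all but POLR1E. The motifs, searched on both strands, were the E-box CACGTG bound by MYC with MAX, its variant CACGCG, the ETS core CCGGAAG and the box CCAAT; capitals mark matches to any of them, and a stretch in capitals can hold overlapping matches. POLR1A and POLR1B had the largest falls, POLR1C and UBTF also fell, and TAF1B is shown as a gene that did not pass the test. POLR1D, whose windows are not shown, did not pass either, and the window of its second start holds CACGCG. Among the windows not shown, those of POLR1F, which also fell, and of the second start of UBTF hold none of the motifs.
POLR1A, chr2:86105837-86106136, minus strand: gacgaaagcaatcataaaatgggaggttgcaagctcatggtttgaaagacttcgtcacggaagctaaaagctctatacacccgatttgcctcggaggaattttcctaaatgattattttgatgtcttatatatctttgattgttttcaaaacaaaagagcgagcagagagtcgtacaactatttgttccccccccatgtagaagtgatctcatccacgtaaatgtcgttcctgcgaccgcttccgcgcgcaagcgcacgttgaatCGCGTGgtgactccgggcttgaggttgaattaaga
POLR1B first start, chr2:112541786-112542085, plus strand: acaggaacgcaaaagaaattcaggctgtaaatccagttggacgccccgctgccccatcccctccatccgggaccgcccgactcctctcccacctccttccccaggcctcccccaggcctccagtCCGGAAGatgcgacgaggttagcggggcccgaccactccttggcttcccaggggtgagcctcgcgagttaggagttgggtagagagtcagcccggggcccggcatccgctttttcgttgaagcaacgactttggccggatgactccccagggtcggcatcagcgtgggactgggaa
POLR1B second start, chr2:112542215-112542514, plus strand: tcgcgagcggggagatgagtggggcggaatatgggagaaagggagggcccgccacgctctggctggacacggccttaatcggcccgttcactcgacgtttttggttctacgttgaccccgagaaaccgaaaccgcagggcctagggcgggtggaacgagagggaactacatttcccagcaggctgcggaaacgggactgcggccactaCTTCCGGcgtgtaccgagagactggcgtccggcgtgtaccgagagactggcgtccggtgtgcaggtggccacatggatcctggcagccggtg
POLR1C, chr6:43516839-43517138, plus strand: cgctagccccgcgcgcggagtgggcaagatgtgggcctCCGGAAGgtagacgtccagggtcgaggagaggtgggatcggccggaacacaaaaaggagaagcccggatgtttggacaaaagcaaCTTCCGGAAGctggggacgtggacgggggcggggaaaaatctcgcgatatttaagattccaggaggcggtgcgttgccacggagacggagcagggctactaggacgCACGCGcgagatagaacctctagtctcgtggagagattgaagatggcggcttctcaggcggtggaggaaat
UBTF first start, chr17:44220833-44221132, minus strand: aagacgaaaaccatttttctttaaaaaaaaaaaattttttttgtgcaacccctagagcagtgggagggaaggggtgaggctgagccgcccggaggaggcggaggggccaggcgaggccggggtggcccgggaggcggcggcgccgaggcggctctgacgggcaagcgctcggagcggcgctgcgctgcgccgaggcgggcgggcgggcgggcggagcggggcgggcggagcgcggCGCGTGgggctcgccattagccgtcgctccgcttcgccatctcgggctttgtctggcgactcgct
TAF1B first start, chr2:9843192-9843491, plus strand: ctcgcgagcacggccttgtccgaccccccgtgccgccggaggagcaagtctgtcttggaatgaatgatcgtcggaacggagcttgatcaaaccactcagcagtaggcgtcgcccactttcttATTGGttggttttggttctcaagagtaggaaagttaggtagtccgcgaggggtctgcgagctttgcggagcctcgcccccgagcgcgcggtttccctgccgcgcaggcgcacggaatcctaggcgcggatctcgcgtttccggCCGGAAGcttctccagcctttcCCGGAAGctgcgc

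The 9 genes with a window include RRN3 and not POLR1E, and a gene counts if any of its windows holds the motif. Genes differ in their number of windows and in GC content, and the shares were not adjusted for either. CACGTG was found in the windows of 0 of the 9 genes, and 8.77% of all 27305 genes with a window hold it. CACGCG was found in 5 (POLR1A, POLR1C, POLR1D, UBTF and RRN3), against 13.50% of all genes. The ETS core was found in 5 (POLR1B, POLR1C, TAF1A, TAF1B and RRN3), against 12.16%, and CCAAT in 4 (POLR1D, TAF1A, TAF1B and RRN3), against 39.72%. In POLR1B each of the 2 start sites has 1 ETS core, at -126 and -42 relative to its own start. POLR1C has 3 ETS cores, 2 of which overlap. CACGCG was present in genes that fell and in POLR1D, and the ETS core in genes that fell and in TAF1A and TAF1B. POLR1D, TAF1A and TAF1B did not pass the test, which does not show that they stayed the same. A link between motif and response was not tested. These matches describe the letters of the windows and do not show binding.

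How the genes responded to BET inhibition was read from JQ1 against DMSO within each line. In MHH-CALL4, 6 of the 9 genes fell under JQ1 (POLR1A, POLR1B, POLR1C, POLR1E, POLR1F and UBTF), 0 rose and 3 did not pass the test (limma, with Benjamini-Hochberg adjustment over 14232 genes and a threshold of 0.05). Among all genes 17.5% were called lower and 11% higher, 28.5% in either direction. The 3 JQ1 arrays lay below the 3 DMSO arrays in 6 of the 9 genes and above them in 0, against 24.1% and 19.7% of all genes. After median centring of the arrays 16.1% of all genes were called lower and 15.2% higher, and the same 6 genes were called among the 9. The median difference of the 9 genes was -0.61 log2, with a range from -1.49 to -0.099, and that of all genes was 0.0065. In MUTZ-5 the same 6 genes fell, 0 rose and 3 did not pass, against 13% of all genes called lower and 9.06% higher, 22% in either direction. The JQ1 arrays lay below the DMSO arrays in 7 of the 9, the 6 and POLR1D, and above them in 0, against 18.7% and 13.8% of all genes. After centring, 11.6% were lower and 12.4% higher in MUTZ-5, and 5 of the 9 genes were called lower. Their median in MUTZ-5 was -0.43 log2, with a range from -1.47 to 0.28, and that of all genes was 0.0084.

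**Figure D1:**
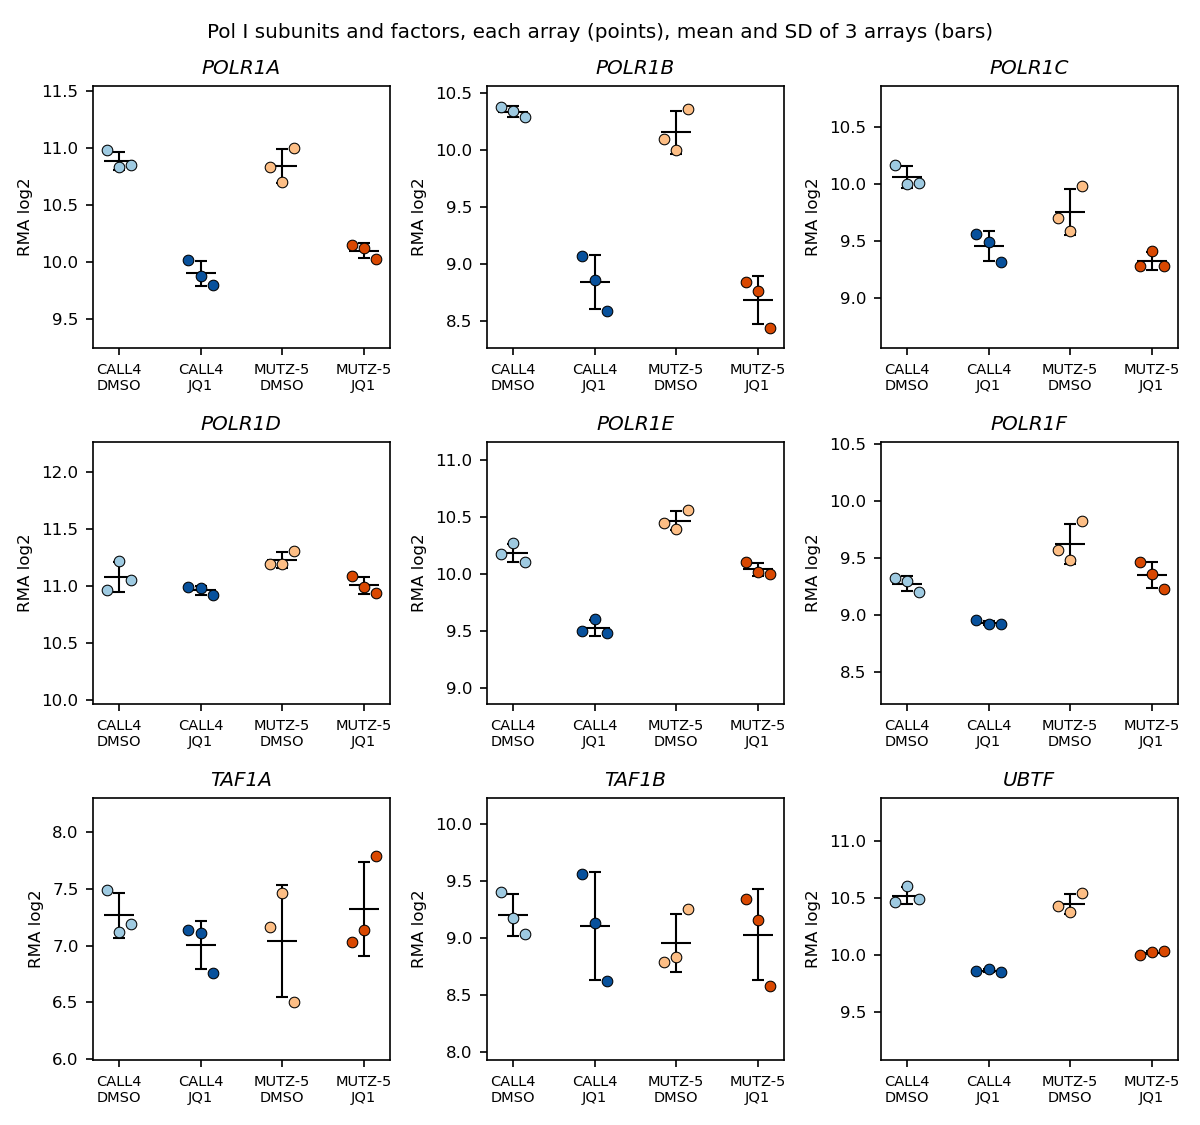
RMA log2 values of the 9 genes on each of the 12 arrays (points) with the mean and SD of 3 arrays (bars); every panel spans the same number of log2 units, levels are not comparable between panels, and CALL4 stands for MHH-CALL4. In POLR1A, POLR1B, POLR1C, POLR1E, POLR1F and UBTF all 3 JQ1 points lie below all 3 DMSO points of the same line, while TAF1A and TAF1B spread widely within groups.

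The 2 catalytic subunits fell the most. POLR1B, the second-largest subunit, read 10.38, 10.34 and 10.29 under DMSO in MHH-CALL4 and 9.07, 8.86 and 8.59 under JQ1. MUTZ-5 arrays gave 10.10, 9.995 and 10.36 under DMSO and 8.84, 8.76 and 8.44 under JQ1. The groups did not overlap in either line, and the JQ1 arrays spread more than the DMSO arrays in MHH-CALL4. The means went from 10.34 ± 0.044 to 8.84 ± 0.24 in MHH-CALL4 (SD, n = 3), a 2.82-fold fall (SE 0.13 log2, limma adjusted p = 2.47e-06). In MUTZ-5 they went from 10.15 ± 0.19 to 8.68 ± 0.21, a 2.78-fold fall (adjusted p = 4e-06, limma). POLR1B stood at rank 65 of 14232 genes ordered from the largest fall in MHH-CALL4 and at rank 48 in MUTZ-5.

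POLR1A, the largest subunit, read 10.98, 10.83 and 10.85 under DMSO in MHH-CALL4 and 10.02, 9.88 and 9.80 under JQ1. The values in MUTZ-5 were 10.83, 10.70 and 11.00 under DMSO and 10.15, 10.12 and 10.03 under JQ1. All JQ1 arrays were below all DMSO arrays of their line. The fall was 1.98-fold in MHH-CALL4, from 10.89 ± 0.081 to 9.90 ± 0.11 (SE 0.090 log2, n = 3, limma adjusted p = 3.27e-06). It was 1.67-fold in MUTZ-5, from 10.84 ± 0.15 to 10.10 ± 0.060 (limma adjusted p = 5.48e-05). The gene ranked 237 of 14232 by size of fall in MHH-CALL4 and 360 in MUTZ-5.

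Of the 2 platform subunits that polymerases I and III share, POLR1C fell and POLR1D did not pass. POLR1C read 10.17, 9.9997 and 10.01 under DMSO in MHH-CALL4 and 9.56, 9.49 and 9.31 under JQ1, a 1.52-fold fall (limma, -0.61 log2, SE 0.10, adjusted p = 0.000612). In MUTZ-5 it read 9.70, 9.59 and 9.98 under DMSO and 9.28, 9.41 and 9.28 under JQ1, a 1.35-fold fall (adjusted p = 0.00799 by limma). Its groups did not overlap, and in MUTZ-5 the lowest DMSO array and the highest JQ1 array lay close together. POLR1D read 10.97, 11.22 and 11.05 under DMSO and 10.99, 10.98 and 10.92 under JQ1 in MHH-CALL4, where the groups overlapped (-0.12 log2, 95% interval -0.29 to 0.055, adjusted p = 0.308 by limma). In MUTZ-5 it read 11.19, 11.19 and 11.31 under DMSO and 11.09, 10.99 and 10.94 under JQ1, with no overlap (-0.22 log2, interval -0.39 to -0.051, limma adjusted p = 0.0642). The POLR1D difference in MUTZ-5 passed the test in 4 of 20 alternative analyses, namely cyclic loess (limma adjusted p = 0.0213), genes at or above the median level (0.0277), trend and robust variance moderation (0.0332) and the fit without MHH-CALL4 DMSO replicate 2 (0.0425), with adjusted p from 0.0213 to 0.192 over all of them.

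The peripheral subunits fell less than the catalytic ones in size of the estimate. POLR1E, part of a dimer that supports initiation and elongation, read 10.18, 10.27 and 10.11 under DMSO in MHH-CALL4 and 9.50, 9.61 and 9.48 under JQ1, a fall of 0.66 log2 (SE 0.075, limma adjusted p = 2.23e-05). In MUTZ-5 it read 10.45, 10.40 and 10.56 under DMSO and 10.11, 10.02 and 10.003 under JQ1, a fall of 0.43 log2 (limma adjusted p = 0.000964). Neither line showed overlap between its groups. POLR1F, a subunit of the stalk that contacts RRN3, read 9.32, 9.30 and 9.20 under DMSO in MHH-CALL4 and 8.95, 8.92 and 8.92 under JQ1, a fall of 0.35 log2 (limma adjusted p = 0.0117). In MUTZ-5 it read 9.57, 9.48 and 9.82 under DMSO and 9.46, 9.36 and 9.23 under JQ1, a fall of 0.27 log2 (limma adjusted p = 0.0453). The POLR1F call in MUTZ-5 held in 6 of 20 alternatives, whose adjusted p ranged from 0.0103 to 0.17. Without MUTZ-5 DMSO replicate 3 the fall was 0.18 log2 (limma adjusted p = 0.147), and without MUTZ-5 JQ1 replicate 3 it was 0.22 (adjusted p = 0.17). It was also lost without MUTZ-5 DMSO replicate 1 (adjusted p = 0.0749) or JQ1 replicate 2 (0.108), and without any 1 of the 6 MHH-CALL4 arrays (from 0.051 to 0.0639), which enter the estimate of the spread only.

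UBTF, the HMG-box protein of the nucleolus, read 10.46, 10.60 and 10.49 under DMSO in MHH-CALL4 and 9.86, 9.87 and 9.85 under JQ1. MUTZ-5 arrays gave 10.43, 10.37 and 10.54 under DMSO and 10.003, 10.02 and 10.03 under JQ1. The JQ1 arrays of each line lay within a few hundredths of a log2 unit of each other, with SDs of 0.012 in both lines, and below all DMSO arrays. The falls were 1.58-fold in MHH-CALL4 (SE 0.069 log2, n = 3, limma adjusted p = 1.05e-05) and 1.35-fold in MUTZ-5 (limma adjusted p = 0.000477).

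The 2 subunits of SL1 did not pass the test in either line. TAF1A read 7.49, 7.12 and 7.19 under DMSO and 7.14, 7.11 and 6.76 under JQ1 in MHH-CALL4, and 7.16, 7.46 and 6.50 under DMSO and 7.03, 7.14 and 7.79 under JQ1 in MUTZ-5. The differences were -0.26 log2 in MHH-CALL4 (95% interval -0.76 to 0.24, adjusted p = 0.454 by limma) and 0.28 in MUTZ-5 (interval -0.22 to 0.78, adjusted p = 0.507 by limma). TAF1A was the one member below the median level of all genes (8.52), and with extended summaries its signs turned in both lines, to 0.13 and -0.29. TAF1B read 9.40, 9.17 and 9.03 under DMSO and 9.56, 9.13 and 8.62 under JQ1 in MHH-CALL4, and 8.79, 8.83 and 9.25 under DMSO and 9.34, 9.16 and 8.58 under JQ1 in MUTZ-5. Its differences were -0.099 (interval -0.59 to 0.39, adjusted p = 0.794 by limma) and 0.066 (interval -0.43 to 0.56, limma adjusted p = 0.91). The JQ1 groups of TAF1B had SDs of 0.47 and 0.40, and each interval includes the fall estimated for POLR1F in the same line.

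**Figure D2:**
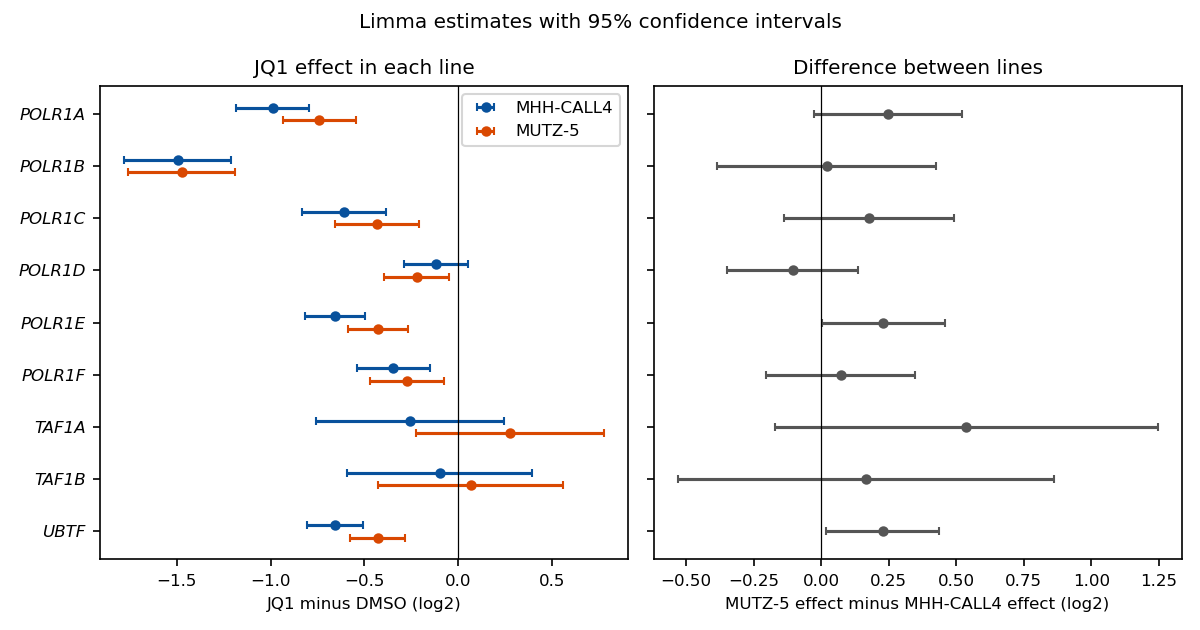
Left, JQ1 minus DMSO in log2 units for each gene in MHH-CALL4 (blue) and MUTZ-5 (orange); right, the MUTZ-5 effect minus the MHH-CALL4 effect. Points are limma estimates and bars 95% confidence intervals; POLR1B is lowest in both lines at -1.49 and -1.47, and the interval of the difference spans 0 in every gene except POLR1E and UBTF, where its unadjusted lower bound lies just above 0.

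The difference of the JQ1 effects between lines asks whether the response depends on the line. Of the 9 genes 0 passed in that test (limma), where 1.53% of all genes did (0.583% lower and 0.949% higher), and 2 had an unadjusted p under 0.05. These were UBTF (0.23 log2, 95% interval 0.018 to 0.44, limma adjusted p = 0.419) and POLR1E (0.23, interval 0.0016 to 0.46, limma adjusted p = 0.472). The difference, MUTZ-5 minus MHH-CALL4, was above 0 in 8 of the 9 genes, POLR1D being the exception at -0.11, and above 0 in 54.4% of all genes. This count of signs was not tested, and the 9 genes were read on the same arrays. The sign turned for POLR1B with cyclic loess (-0.023) and for TAF1A with extended summaries (-0.42). For TAF1B it turned without MHH-CALL4 JQ1 replicate 3 (-0.078). For POLR1B it was 0.019 with an interval from -0.38 to 0.42, for POLR1A 0.25 (-0.029 to 0.52), for POLR1C 0.18 (-0.14 to 0.49) and for POLR1F 0.072 (-0.20 to 0.35). For TAF1A (0.54, interval -0.17 to 1.25) and TAF1B (0.16, interval -0.53 to 0.86) the intervals were wider.

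The comparison of the lines under DMSO asks how they differ untreated. POLR1E and POLR1F were higher in MUTZ-5, by 0.28 log2 (interval 0.12 to 0.44, limma adjusted p = 0.0135) and 0.35 log2 (interval 0.16 to 0.55, limma adjusted p = 0.0118), and the other 7 genes did not pass. Among all genes 23.4% were called, so 2 of the 9 is near the background. Of all genes 11.5% were lower and 11.9% higher in MUTZ-5, and after median centring 14.3% lower and 10.3% higher. The groups did not overlap in 3 of the 9 genes, POLR1E and POLR1F higher and POLR1C lower in MUTZ-5, against 20% of all genes higher and 16.1% lower. Neither gene was called without MHH-CALL4 DMSO replicate 3 (adjusted p = 0.0684 for POLR1E and 0.0544 for POLR1F), and POLR1E was not called with extended summaries (adjusted p = 0.0542). POLR1C was lower in MUTZ-5 by 0.30 log2 with no overlap, at an adjusted p of 0.0516 in limma, and it passed in 6 of 20 alternatives, with adjusted p from 0.00561 (without MUTZ-5 DMSO replicate 3, -0.41 log2) to 0.197. It also passed without MHH-CALL4 JQ1 replicate 3 (limma adjusted p = 0.0405). POLR1B (-0.18 log2), POLR1A (-0.047) and UBTF (-0.072) had overlapping groups in the 2 lines.

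Under JQ1 the lines differed in the same 2 genes, a count near the background of all genes. POLR1E was 0.51 log2 higher in MUTZ-5 (interval 0.35 to 0.67, limma adjusted p = 0.000164) and POLR1F 0.42 higher (interval 0.23 to 0.62, limma adjusted p = 0.00365), where 19.9% of all genes were called, 8.25% lower and 11.7% higher. Both passed in 20 of 20 alternatives. POLR1A and UBTF were 0.20 and 0.16 log2 higher in MUTZ-5 without overlap, and neither passed (limma adjusted p = 0.166 and 0.153). With POLR1E and POLR1F this makes 4 of 9 genes without overlap, all higher in MUTZ-5, and 0 lower, against 19.3% and 13.8% of all genes. In the order of group means, POLR1E was highest in MUTZ-5 with DMSO (10.47), then MHH-CALL4 with DMSO (10.19), MUTZ-5 with JQ1 (10.04) and MHH-CALL4 with JQ1 (9.53), and its 2 middle groups met at 10.11. POLR1F had the order MUTZ-5 with DMSO (9.62), MUTZ-5 with JQ1 (9.35), MHH-CALL4 with DMSO (9.27) and MHH-CALL4 with JQ1 (8.93), and the arrays of its 2 middle groups overlapped.

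**Figure D3:**
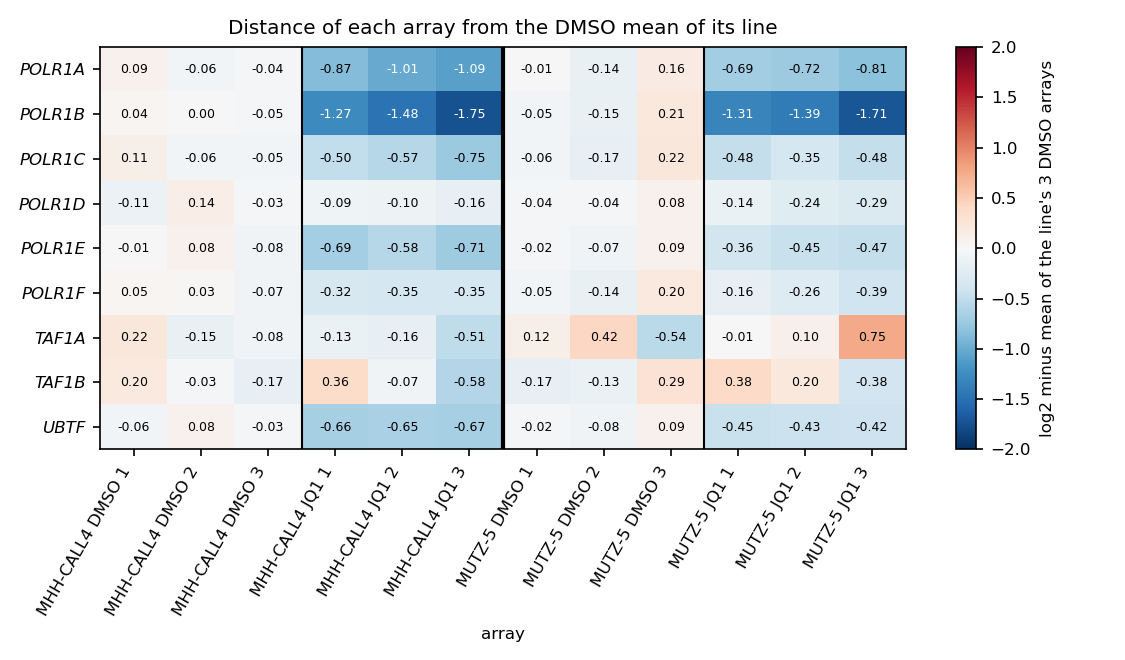
Each cell gives the log2 value of an array minus the mean of the 3 DMSO arrays of its line (blue below, red above). MUTZ-5 DMSO 3 is above its line's DMSO mean in 8 of 9 genes, JQ1 arrays of POLR1B run from -1.27 to -1.75, and TAF1B has both signs among the JQ1 arrays of each line, as TAF1A has in MUTZ-5.

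On some arrays most of the genes were high or low together. MUTZ-5 DMSO replicate 3 had the highest value of its group in 8 of the 9 genes, TAF1A being the lowest there, with a median deviation from the group mean of 0.159 log2 against 0.048 over all genes, of which 52.2% were highest there. MUTZ-5 DMSO replicate 2 was lowest in 7 genes (48.6% of all genes). MHH-CALL4 JQ1 replicate 3 was lowest in 9 of 9 genes, where 35.5% of all genes were, with a median deviation of -0.103. The JQ1 effects were recomputed without the arrays that were highest or lowest in most genes. Without MUTZ-5 DMSO replicate 3 the MUTZ-5 effects of POLR1A, POLR1B and POLR1C were -0.66, -1.37 and -0.32 log2, and without MHH-CALL4 JQ1 replicate 3 the MHH-CALL4 effects of POLR1B and POLR1C were -1.37 and -0.54. All of these passed the test, whereas POLR1F in MUTZ-5 lost its call without MUTZ-5 DMSO replicate 3. MUTZ-5 JQ1 replicate 3 was lowest in 7 of 9 (38.8% of all genes), and without it POLR1F lost its call as well. Highest in most genes were also MHH-CALL4 JQ1 replicate 1 (7 of 9, against 36.1% of all genes) and 2 more arrays. These were MHH-CALL4 DMSO replicate 1 (6 of 9, against 34.0%) and MUTZ-5 JQ1 replicate 1 (6 of 9, against 44.1%). With any 1 of the 12 arrays left out, the POLR1B effect lay between -1.61 and -1.37 in MHH-CALL4 and between -1.55 and -1.36 in MUTZ-5. POLR1A, POLR1B, POLR1C, POLR1E and UBTF were called in 20 of 20 alternatives in each line.

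**Figure D4:**
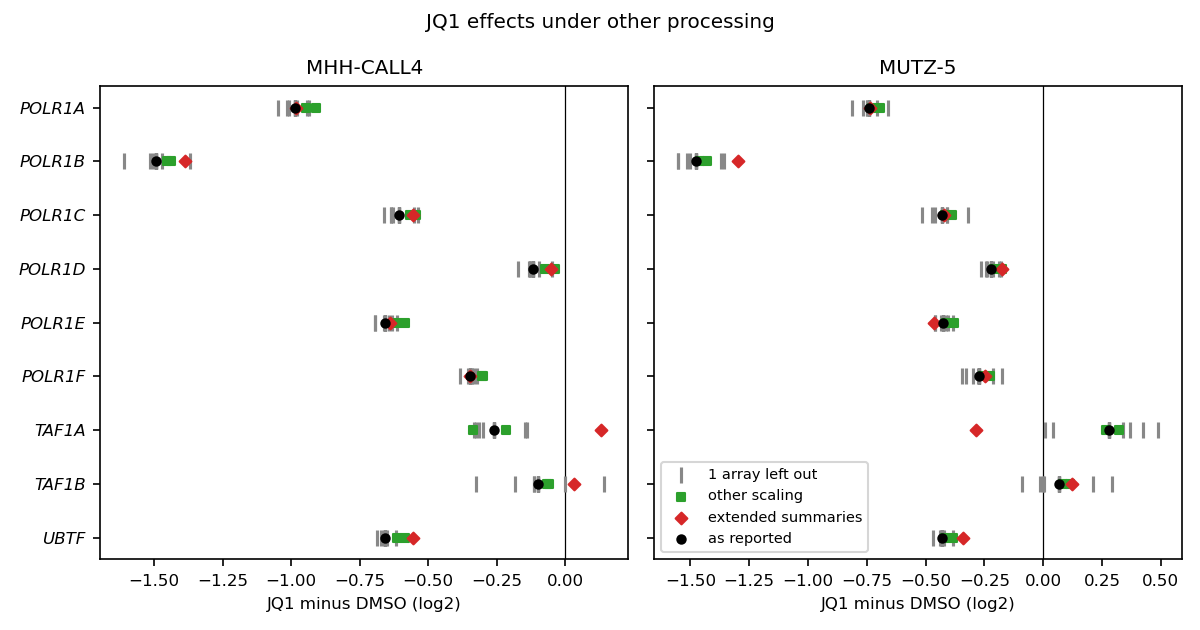
JQ1 minus DMSO in log2 units for each gene as reported (black), with each array left out in turn (grey), after median centring or cyclic loess (green) and with extended summaries (red). The 6 genes that fell stay below 0 in all of these in both lines, whereas extended summaries put TAF1A on the other side of 0 in each line.

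The other genes of the polymerase I pathway were described from fixed lists. POLR1G and POLR1H, the remaining subunits of polymerase I, and TAF1C and TAF1D of SL1 stand only in clusters with several symbols and have no value here. Of the 5 subunits that all 3 nuclear polymerases share, 2 fell in MHH-CALL4 (POLR2H by 0.34 log2 and POLR2E by 0.22), 1 rose (POLR2L by 0.51) and 2 did not pass. In MUTZ-5 1 fell (POLR2F by 0.26), POLR2L rose by 0.52 and 3 did not pass. Those MUTZ-5 counts are near the background of that line, where 13% of all genes were called lower and 9.06% higher. The background of MHH-CALL4 was 17.5% lower and 11% higher. Counts among 5 genes were not tested against these shares. Of the other initiation and termination factors, TTF1, which stops polymerase I at the end of the repeat, fell in MHH-CALL4 (by 0.50 log2, limma adjusted p = 0.00214) and did not pass in MUTZ-5 (-0.24, adjusted p = 0.108 in limma). TBP, which SL1 shares with other polymerases' factors, did not pass in either line (-0.19 and -0.18).

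Of 13 measured regulators and rDNA chromatin factors, 4 fell in each line, 0 rose and 9 did not pass, with medians of -0.13 and -0.010 log2, where 17.5% and 13% of all genes were lower and 11% and 9.06% higher. One of the 9, NPM1, read only 4.43 to 5.53 log2 on the 12 arrays, so its result may say little about the gene. NPM1 also stands in 2 clusters with several symbols, which were not used. The 4 were the same in both lines. MYC changed by -2.05 log2 in MHH-CALL4 and -1.32 in MUTZ-5, and the RNA helicase DDX21, which promotes rRNA transcription and processing, by -1.30 and -1.01. The nucleolar phosphoprotein NOLC1 changed by -1.04 and -0.88, and TCOF1, the treacle protein that works with UBTF and polymerase I, by -0.63 and -0.61. Of the factors that act on rDNA chromatin, BAZ2A, a silencing factor (0.16 and 0.062), did not pass in either line. MYC differed between the lines in the size of its fall (0.73 log2, limma adjusted p = 0.00112).

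The specific subunits of the other 2 polymerases were set beside those of polymerase I. Of 5 subunits specific to RNA polymerase II, which makes mRNA, 0 fell, 1 rose and 4 did not pass in each line, with medians of -0.0645 and -0.0695 log2. Over all genes MHH-CALL4 had 17.5% lower and 11% higher, and MUTZ-5 had 13% and 9.06%, so a count of 0 lower among 5 is near the background. The one that rose was POLR2A, its largest subunit, by 0.76 in MHH-CALL4 and 0.62 in MUTZ-5. Of 7 subunits specific to RNA polymerase III, which makes tRNA and 5S rRNA, 4 fell, 1 rose and 2 did not pass in MHH-CALL4 (median -0.39), and 2 fell, 2 rose and 3 did not pass in MUTZ-5 (median -0.19). POLR3D changed by -0.76 and -0.70 and POLR3E by -0.57 and -0.45, while POLR3GL, the paralog of POLR3G, rose by 0.51 and 0.44.

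**Figure D5:**
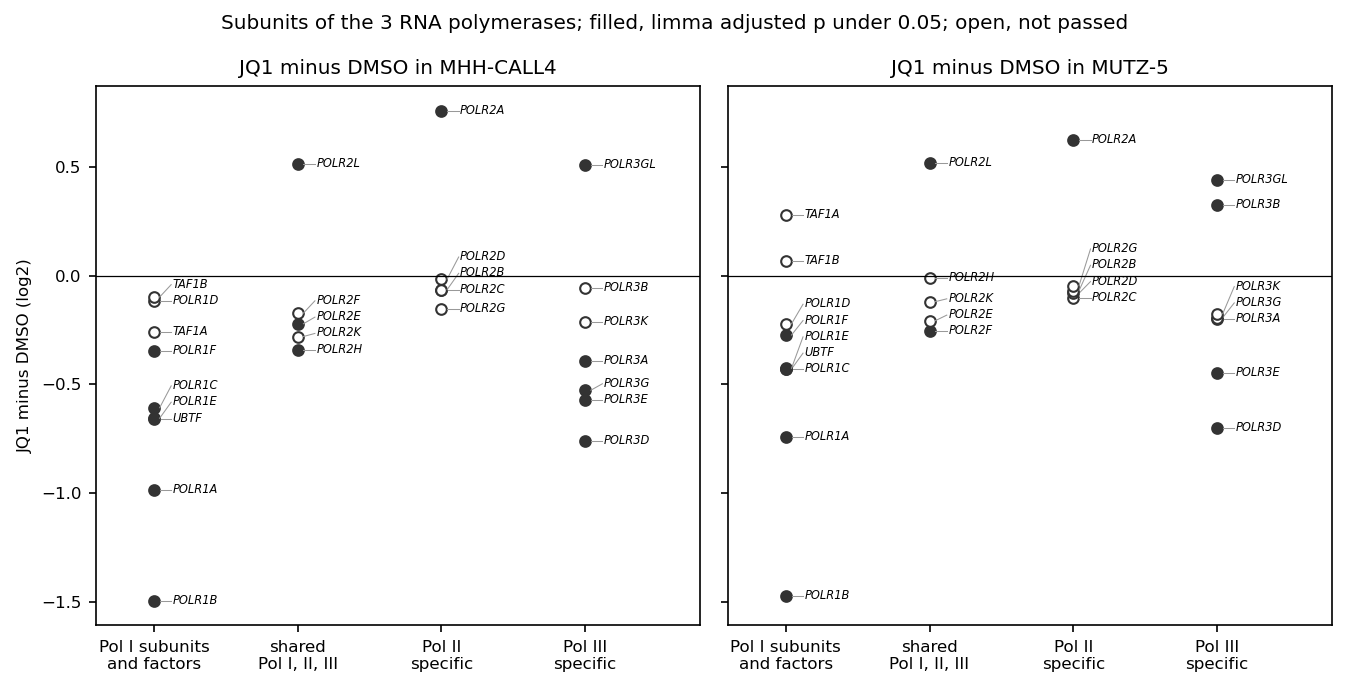
JQ1 minus DMSO in log2 units for the polymerase I genes, the shared subunits and the subunits specific to polymerases II and III, in MHH-CALL4 (left) and MUTZ-5 (right); filled points have a limma adjusted p under 0.05 and open points do not. POLR1B and POLR1A are the 2 lowest points in each panel, with POLR3D (-0.76 and -0.70) next, and POLR2A is the highest.

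The largest and second-largest subunits are related in sequence across the 3 polymerases, so their changes are given as log2 ratios within each array, in 4 pairs chosen after the values were seen. The JQ1 effect on the ratio of POLR1A to POLR2A was -1.75 log2 in MHH-CALL4 and -1.36 in MUTZ-5, and on POLR1A to POLR3A -0.59 and -0.54. On POLR1B to POLR2B it was -1.43 and -1.41, and on POLR1B to POLR3B -1.44 and -1.80. For POLR1B to POLR2B the ratio went from -1.04 ± 0.037 to -2.47 ± 0.12 in MHH-CALL4 and from -1.27 ± 0.059 to -2.68 ± 0.071 in MUTZ-5 (SD, n = 3). Since the pairs were picked for their changes, these ratios are a description with no test. A ratio within an array shows that the 2 genes changed unequally and not that either stayed the same. POLR3B itself rose in MUTZ-5 (0.32 log2, limma adjusted p = 0.0149) and did not pass in MHH-CALL4 (-0.057, adjusted p = 0.673 by limma).

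Outside the members, genes with a mean at or above the median level of all genes were ranked by likeness to POLR1B. The measure was the Euclidean distance of the 4 group means, centred per gene, over the 4 groups of 3 arrays. The nearest were SFXN4 (distance 0.17 log2), RRS1 (0.21), ADAT2 (0.22), P2RX1 (0.22) and SLC17A9 (0.23). SFXN4, a mitochondrial sideroflexin, went from 10.07 to 8.37 in MHH-CALL4 and from 9.73 to 8.20 in MUTZ-5. RRS1, a ribosome assembly factor, changed by -1.62 log2 in MHH-CALL4 and -1.29 in MUTZ-5, and ADAT2, a tRNA-editing deaminase subunit, by -1.55 and -1.17. P2RX1, an ATP-gated ion channel, changed by -1.23 and -1.39, and SLC17A9, a vesicular nucleotide transporter, by -1.19 and -1.36. This likeness rests on 4 group means and is a description.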

How the data were processed

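Per the labels and the series' design text, the authors summarised each array by RMA (log2 scale) with Affymetrix Expression Console, at the core and the extended gene level; the version and the genome build are not given in the sources used here. Gene symbols came from the platform annotation, updated through RefSeq gene IDs (0 symbols changed); of 22011 core clusters 14432 carry 1 symbol, 2408 several and 5171 none here. For 197 genes with several clusters the one with the highest mean was taken, leaving 14232. No filter or further normalization was applied.

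Limma 3.58.1 (R 4.3.3, lmFit and eBayes) was fitted with 1 mean per group to the 12 core arrays, with two-sided tests and Benjamini-Hochberg adjustment over all genes, called at an adjusted p under 0.05. Intervals are 95% and unadjusted. The members and lists were chosen with earlier results of these data known. Alternatives were median centring, cyclic loess, extended summaries, a level filter, trend and robust moderation, only the groups compared, a replicate block, averaged clusters and each array left out; each array counts as 1 replicate. Named genes are the members, up to 5 genes a list and the 5 most like POLR1B. On data simulated from these arrays, 70.1% of added changes of 0.5 log2 were recovered in MHH-CALL4 and 64.2% in MUTZ-5, and 95.5% and 97.0% of changes of 1. False calls numbered 9 in MHH-CALL4 and 15 in MUTZ-5. Changes were added to far fewer genes than were called in the real data. The adjustment depends on that share, so the recovery does not carry over directly to the tests above.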

Additional observations from a re-analysis of the deposited data

How the results depend on the processing

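The count of members called in MHH-CALL4 was 6 in all alternatives run. In MUTZ-5 it ran from 5 to 7, with POLR1F and POLR1D as the members that crossed the threshold, and with arrays left out from 5 to 6. The share of all genes called lower was 17.65% with cyclic loess and 15.9% with extended summaries in MHH-CALL4. In MUTZ-5 these shares were 14.6% and 11.6%. The difference between lines called 0 members in all alternatives run, and the lines under JQ1 2. Under DMSO it was 2 as reported, 4 with cyclic loess, 1 with extended summaries and 0 to 3 with arrays left out. Over all genes 23.4% were called there as reported, near 2 of 9. With cyclic loess 14.1% were lower and 12.6% higher in MUTZ-5, and with extended summaries 10.9% and 10.8%. Effects that changed sign were all uncalled. With extended summaries TAF1A gave 0.13 (MHH-CALL4), -0.29 (MUTZ-5), -0.42 (difference between lines), 0.050 (lines under DMSO) and -0.37 (lines under JQ1), and TAF1B 0.034 in MHH-CALL4; with cyclic loess the POLR1B difference between lines was -0.023. With arrays left out TAF1B ranged from -0.33 to 0.14 in MHH-CALL4, from -0.090 to 0.29 in MUTZ-5, from -0.078 to 0.39 for the difference between lines and from -0.32 to 0.15 between lines under JQ1. The POLR1B difference between lines ranged from -0.10 to 0.14, and between lines under DMSO POLR1A ranged from -0.13 to 0.025 and TAF1A from -0.43 to 0.050. Causes of these changes were not tested. Where only the 2 groups compared were fitted, the difference between lines gives the fit already reported, and TAF1A is not tested when genes below the median level are left out. Whether the replicate numbers pair the samples cannot be told from 3 arrays per group. Deviations of same-numbered DMSO and JQ1 arrays correlated at 0.30, 0.070 and 0.23 in MHH-CALL4 and at -0.17, -0.21 and -0.44 in MUTZ-5. Of 12 arrays, 4 correlated best with their own number under the other treatment. The replicate block gave 6 member calls for MHH-CALL4 and 5 for MUTZ-5, and 3685 and 2804 calls over all genes against 4057 and 3138.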
